A study of Mus musculus with 31 samples.

Results

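The genes described here encode the kinesin and cytoplasmic dynein motors of mouse sensory neurons with their light chains and the dynactin complex. Members were the protein-coding genes of the GENCODE M21 annotation whose symbol names a kinesin (Kif), a kinesin light chain (Klc1 to Klc4), a cytoplasmic dynein subunit (Dync) or a dynactin subunit (Dctn1 to Dctn6). The rule found 60 genes among 55536 identifiers in the count tables, of which 22028 are protein-coding. No measured value was used to choose them. One gene, Kif1bp, was matched by its symbol but encodes a kinesin-binding protein and no motor.

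RNA bound to tagged ribosomes was isolated by translating ribosome affinity purification (TRAP) and sequenced. The experimental mice were Nav1.8-Cre;L10a-eGFP-fl/fl, in which Cre made from the locus of the sodium channel Nav1.8 (Scn10a) switches on a GFP-tagged ribosomal protein L10a, so that the tag marks the whole lineage that once used this locus, mostly nociceptors. Control mice were L10a-eGFP-fl/fl without Cre, so both genotypes carried the floxed L10a-eGFP allele. For the central axon, lumbar dorsal roots were collected with spinal cord, for the peripheral axon the sciatic nerve and for the soma lumbar dorsal root ganglia. In batch 1 there were 4 Cre and 4 control libraries of both central axon and soma. In batch 2 there were 4 Cre and 3 control libraries of peripheral axon and 4 of either genotype of soma. Batch and axon type cannot be told apart in a direct comparison of the 2 axons, so each axon was compared with the somas of its own batch. The labels give no age, sex or treatment of the animals. They call the replicates biological but do not say how many animals each library holds, so p-values measure the spread between these libraries.

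Kinesins are motors that use ATP to move along microtubules, most of them toward the plus end, which in axons points away from the cell body. Kinesin-1 (heavy chains Kif5a, Kif5b and Kif5c with light chains) and kinesin-3 (Kif1a, Kif1b) carry organelles and vesicle precursors outward, whereas cytoplasmic dynein-1, with its activator dynactin, carries signalling endosomes and autophagosomes back to the soma. Another set of kinesins (such as Kif11, Kif20a and Kif23) builds and separates the mitotic spindle and completes cell division, and is made mainly in dividing cells. Mature sensory neurons do not divide.

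Library totals ran from 3601399 to 19637292 counts. An amount of 3 counts, taken as the smallest detectable amount, equalled 0.153 to 0.833 CPM (counts per 1000000 counts of the library), and floors cover counting error only. Between 23 and 56 of the 60 members had at least 10 counts in a library, and the lowest numbers, 23 to 28, belonged to the batch 1 soma controls. Nociceptor markers (9 genes, Scn10a and Calca among them) summed to 7201 to 11576 CPM in the batch 1 Cre somas, 7421 to 9217 in the batch 2 Cre somas, 1688 to 8668 in the central and 1041 to 4379 in the peripheral axon Cre libraries. The same sum was 4045 to 10997, 4181 to 7572, 379.9 to 1339 and 523 to 3499 CPM in the respective controls, so the labelled cell type's markers were present in Cre libraries and also in controls. Control 3 of the batch 1 somas stood apart, with a TMM scaling factor of 0.0547, and results that rest on it are given with and without it.

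Among the motors of the Cre somas, the kinesin light chain Klc1 and the dynactin subunits Dctn3 and Dctn2 had the highest mean levels per length. In CPM per kilobase of annotated exon, Dctn3 had 729 ± 355 (mean ± SD, n = 4) in batch 1 and 643 ± 149 in batch 2, and Klc1 had 544 ± 42.7 and 439 ± 40.5. Their ranges overlapped in batch 1 and did not in batch 2. Dctn2 (dynamitin, which links the dynactin arm to its filament) followed at 139 ± 57.7 and 182 ± 9.76. Kif5a, the neuronal kinesin-1 heavy chain, had the highest mean of the 3 heavy chains, with 72 ± 17.1 in batch 1 and 64.2 ± 5.84 in batch 2. Kif5c, also enriched in neurons, had 43 ± 9.06 and 40.2 ± 4.05, and the ubiquitous Kif5b had 27.6 ± 6.0 and 43.8 ± 6.83. The ranges of Kif5a and Kif5c overlapped in batch 1 and did not in batch 2, where Kif5b and Kif5c overlapped. Klc1 thus exceeded each heavy chain in every Cre soma library, while Klc2 had 13.6 ± 3.51 and 6.39 ± 2.4. Dync1h1, the motor subunit of dynein-1, was at 24.7 ± 15.5 and 17.1 ± 2.85. Exon length here counts every annotated exon of a gene, so genes with many rarely used exons are understated.

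Kinesin-2 and kinesin-3 members covered a wide span. Kif3a, which pairs with Kif3b or Kif3c in heterotrimeric kinesin-2, had 52.7 ± 7.42 and 78.5 ± 8.6 CPM per kilobase in the Cre somas of batches 1 and 2, and Kif1a, the carrier of synaptic vesicle precursors, had 37.4 ± 9.48 and 32.1 ± 7.56. Kif17, a homodimeric kinesin-2 known from dendrites and cilia, was low, with 2.38 to 4.76 and 2.65 to 3.56 CPM. At the other end, Kif2b had no count in any of the 31 libraries, Kif12 was seen in 1 central axon control at up to 0.323 CPM, and Kif28 reached at most 1.44 CPM, in a central axon Cre library.

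**Figure D1:**
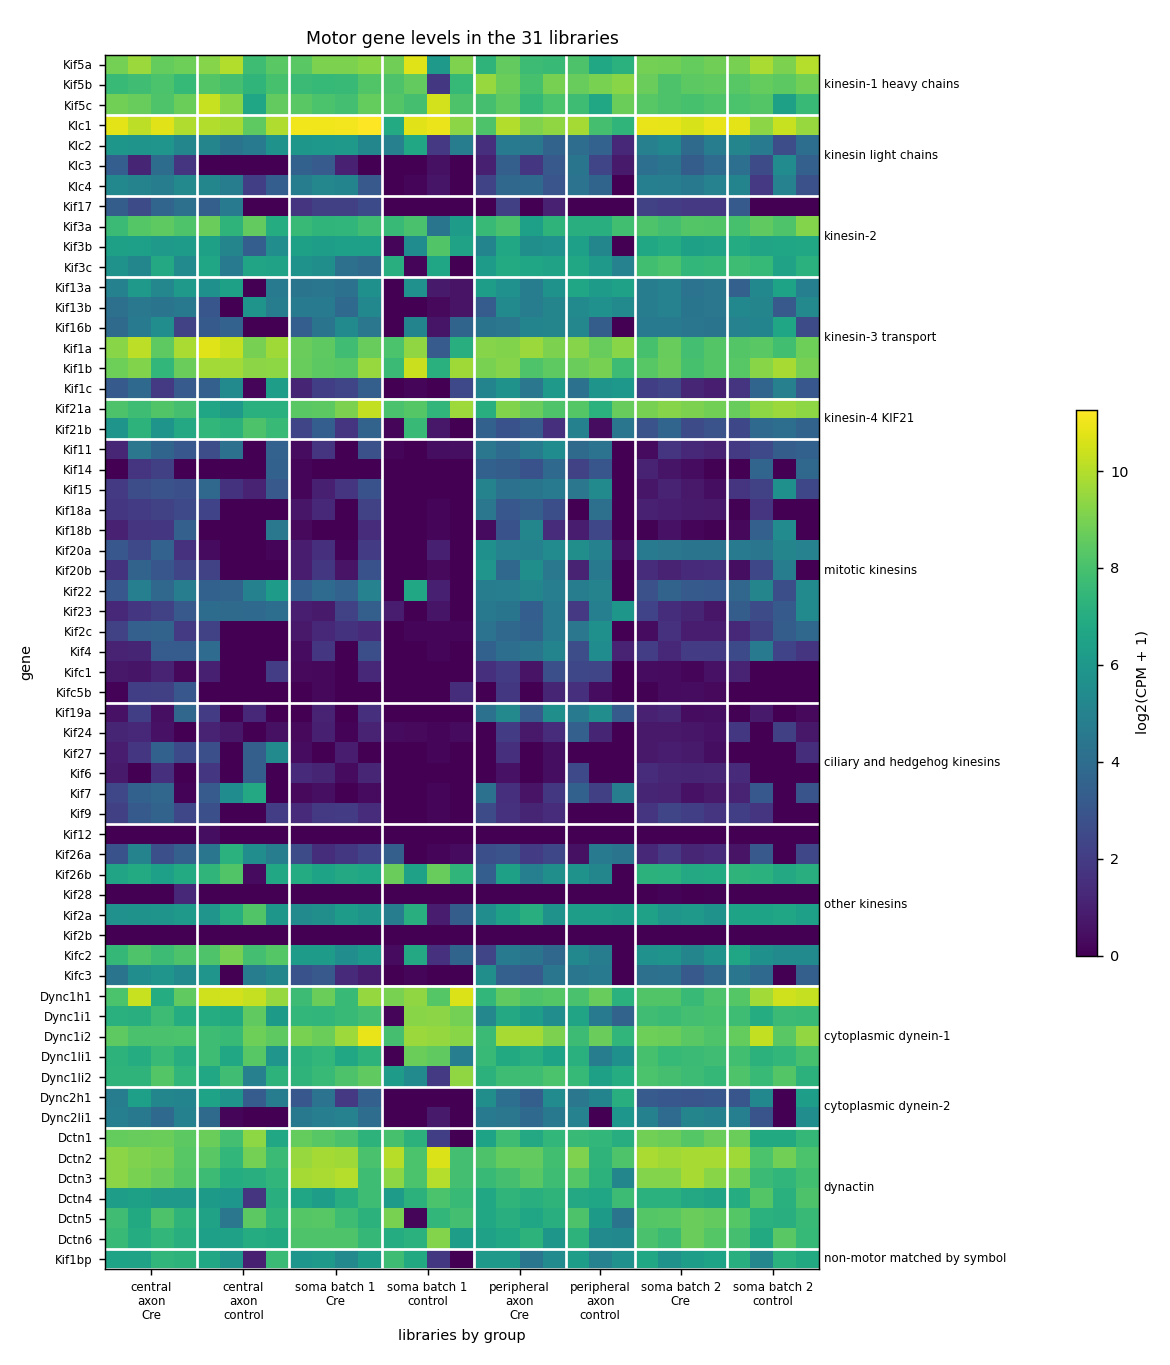
Levels of all 60 genes (vertical axis, grouped by role) in the 31 libraries (horizontal axis, grouped by tissue and genotype), coloured by log2(CPM + 1). The kinesin-1, dynein-1 and dynactin genes are high in most libraries. Most mitotic kinesins are brighter in the peripheral axon Cre libraries than in the Cre somas of the same batch. The mitotic kinesins other than Kif23 are dark in 1 of the 3 peripheral axon controls. Kif2b is at 0 throughout.

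**Figure D2:**
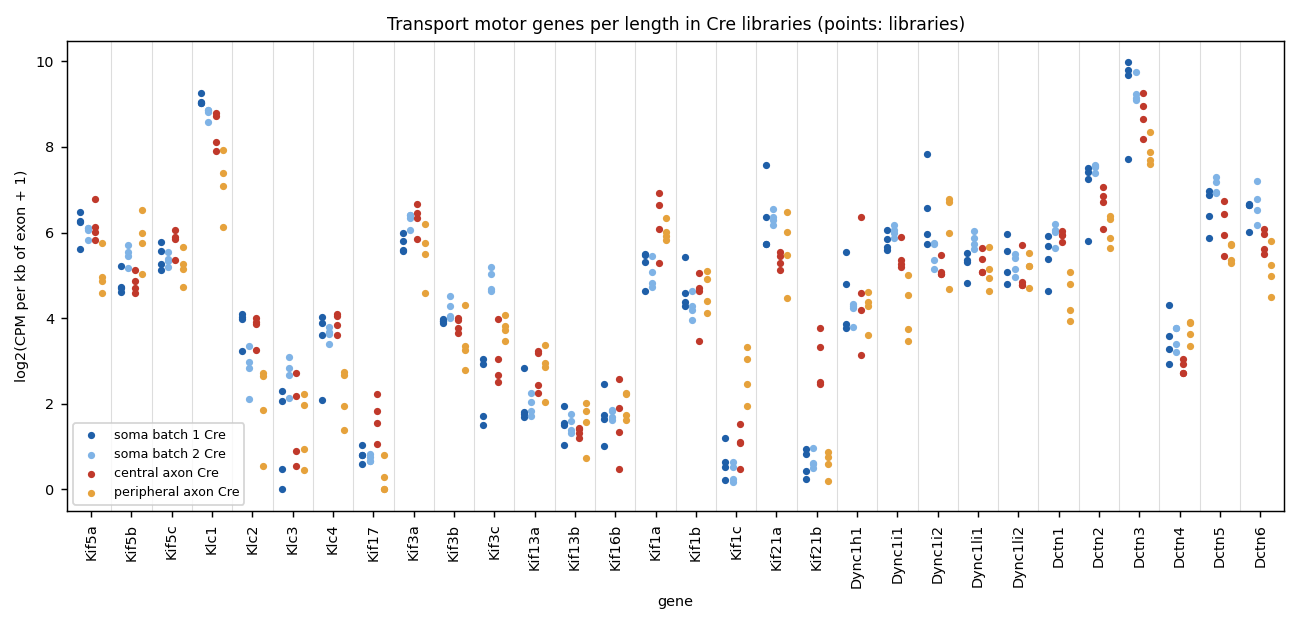
Levels per length, as log2(CPM per kilobase of exon + 1), of the kinesin-1, -2, -3, KIF21, dynein-1 and dynactin genes in the Cre libraries. Each point is a library, coloured by compartment. Klc1 and Dctn3 are the highest genes in the somas of both batches.

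The peripheral axon was compared with the soma among Cre libraries of batch 2 to ask which motors' ribosome-bound RNA differed along the axon that runs in the nerve. Of 54 members tested, 13 were higher and 14 lower in peripheral axon at a Benjamini-Hochberg adjusted p under 0.05 by edgeR's quasi-likelihood test. Across all 15467 genes 31.2% were called, 18.7% higher and 12.5% lower. The members thus had a larger share called lower than all genes did, and a like or slightly larger share called higher, with no test of that contrast. After TMM scaling the groups did not overlap for 30 of the 54 (55.6%), beside 38.7% of all genes. Role divided them: 9 of 10 tested mitotic kinesins were higher, whereas 5 of 6 dynactin genes, 2 of 5 dynein-1 genes, 2 of 4 light chains, 2 of 4 kinesin-2 genes and 1 of 3 kinesin-1 heavy chains were lower. The median log2 fold change was 3.60 over the 10 mitotic kinesins tested, -1.62 over the 6 dynactin genes and -0.03 over all genes tested. A gene could pass the filter on low counts through the axon libraries alone. Kif14 had 19, 9, 6 and 1 and Kif15 10, 17, 14 and 6 counts in the somas. The share and median of the mitotic kinesins may thus depend in part on that filter. With all 4 groups of the batch in 1 fit, which takes in the spread of the controls, 11 members were called, 1 mitotic kinesin among them, beside 8.93% of all genes. In these bulk samples, fewer cells of a type and less RNA per cell cannot be told apart.

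Dynactin, the complex that activates dynein and joins it to cargo, was lower in peripheral axon in 5 of its 6 tested genes. Dctn1 (which binds the microtubule, chr6:83165920-83200117) had 92.4, 214, 112 and 176 CPM in the peripheral axon and 469.7, 425, 316 and 416 in the soma Cre libraries. All 4 axon libraries lay below all 4 soma libraries. The log2 fold change was -1.63 (SE 0.32, adjusted p = 0.00295). In the controls Dctn1 had 196, 178 and 127 CPM in peripheral axon and 426, 114, 114 and 180.2 in soma, and these overlapped. Dctn2 had 278, 393, 378 and 233 CPM in peripheral axon and 912, 805, 883 and 891 in soma, again without overlap, with a fold change of -1.62 (SE 0.30, adjusted p = 0.00218). Dctn3, Dctn5 and Dctn6, of the dynactin arm and the pointed end of the filament, had log2 fold changes of -1.61, -1.79 and -1.72. Dctn4, also of the pointed end, was not called: it had 107 to 163 CPM in axon and 96.2 to 147 in soma, with a change of -0.01 (SE 0.26, adjusted p = 0.988).

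Dynein-1 itself was divided among its subunits. The intermediate chain Dync1i1, the form concentrated in neurons, had 36.2, 111, 79.8 and 44.6 CPM in peripheral axon and 222, 204, 235 and 255 in soma, a log2 fold change of -1.91 (SE 0.39, adjusted p = 0.0036). Its groups did not overlap. In the controls Dync1i1 had 93.7, 24.2 and 11 CPM in peripheral axon and 221, 124, 205 and 197 in soma, also without overlap. Light intermediate chain 1 (Dync1li1) fell by less, with -0.91 (SE 0.26, adjusted p = 0.0207). The heavy chain Dync1h1 (chr12:110601452-110666945) had 176, 367, 287 and 311 CPM in axon and 292, 297, 201 and 278 in soma, and the change of -0.07 (SE 0.29, adjusted p = 0.87) was within the spread between libraries. Dync1i2, the broadly used intermediate chain, had 205, 900.3, 859 and 521 CPM in axon, with axon library 1 below all somas and the others above them, and 439.7, 430.0, 330.2 and 287 in soma, and was not called at 0.60 (SE 0.44, adjusted p = 0.32).

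Among the outward motors, the light chains Klc1 and Klc4 and the heavy chain Kif5a were lower in peripheral axon while the kinesin-3 motors Kif1a and Kif1c were higher. Klc1 had 279, 992, 553 and 677 CPM in axon and 1879, 1831, 1542 and 1892 in soma. The log2 fold change was -1.68 (SE 0.40, adjusted p = 0.00851), and Klc4 gave -1.69 (SE 0.47, adjusted p = 0.0188). Kif5a (chr10:127225696-127263348) had 160.0, 373, 212 and 196 CPM in axon and 477, 473, 389 and 456 in soma, a change of -1.10 (SE 0.32, adjusted p = 0.0216), and the 4 axon values lay below all soma values. Without soma library 8 Kif5a was not called (edgeR adjusted p = 0.0529). Kif5b, with 731, 420.2, 254 and 503 CPM in axon and 412, 281, 341 and 365 in soma, and Kif5c, with 248, 354, 183 and 269 and 325, 281, 255 and 288, were not called, at 0.21 (SE 0.29, adjusted p = 0.603) and -0.32 (SE 0.26, adjusted p = 0.364). Whether Kif5a differed from its paralogs in this contrast was not tested.

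Kif1a had 589, 559, 751 and 522 CPM in peripheral axon and 255, 396, 239 and 306 in soma, a log2 fold change of 0.84 (SE 0.28, adjusted p = 0.0425). Every axon library was above every soma library, although the call was lost in 6 of 8 fits that left out 1 library. Kif1b, which carries mitochondria and synaptic vesicle precursors, was not called, with 511, 591, 290.4 and 357 CPM in axon, 325, 417, 254 and 306 in soma and a change of 0.23 (SE 0.28, adjusted p = 0.572). Kif1c, a widely expressed kinesin-3, had 32.6, 53.1, 21 and 66.1 CPM in axon against 3.25, 4.11, 1.32 and 0.915 in soma, a change of 3.99 (SE 0.58, adjusted p = 0.000493). Its peripheral axon controls reached the same level, at 18.3, 56.6 and 63.2 CPM. In kinesin-2, Kif3c had 74.7, 118, 96.9 and 90.5 CPM in axon and 234, 266, 175 and 183 in soma (-1.35 (SE 0.27, adjusted p = 0.0032)), and 40.7% of its exon length lies under genes on the opposite strand, whose reads cannot be told apart unless counting used strand. Kif3a had 190.2, 259, 82.5 and 158 CPM in axon and 288, 236, 302 and 299 in soma (-0.92 (SE 0.32, adjusted p = 0.0477)), its groups overlapped, and its call was lost in 6 of 8 fits that left out a library. Kif17, with 0, 3.45, 0 and 1.04 CPM in axon and 3.56, 3.15, 2.65 and 2.69 in soma, was not called at -1.45 (SE 1.10, adjusted p = 0.334).

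The rest of the called genes were of mixed roles. Kif19a, a kinesin that shortens microtubules at the tips of cilia, had 17.5, 39, 8.3 and 48 CPM in peripheral axon and 1.06, 1.29, 0.306 and 0.343 in soma (5.05 (SE 0.75, adjusted p = 0.000538)), and 23.1, 45.2 and 8.05 CPM in the peripheral axon controls. Dync2h1, the heavy chain of the ciliary dynein-2, had 46.7, 16.2, 9.52 and 42 CPM in axon and 8.37, 7.33, 6.77 and 7.27 in soma (1.68 (SE 0.49, adjusted p = 0.022)). In the controls Dync2h1 had 21.3, 33.3 and 137 CPM in peripheral axon and 7.08, 37.5, 0 and 76.4 in soma, which overlapped. Kifc2, a minus-end-directed kinesin of neurons, was lower, with 4.13, 24.4, 19 and 13.2 CPM in axon and 51.7, 56, 34.1 and 54.7 in soma (-1.82 (SE 0.49, adjusted p = 0.0156)). Kif26b, which has lost ATP-driven motility, was lower too, at -1.77 (SE 0.52, adjusted p = 0.0236).

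Mitotic kinesins had the highest median fold change of the roles, and the controls held them as well. Kif15, which acts beside Kif11 in spindle assembly, had 32.1, 18.1, 19.5 and 23.9 CPM in the peripheral axon Cre libraries against 0.624, 1.09, 0.713 and 0.343 in the somas, a log2 fold change of 4.84 (SE 0.57, adjusted p = 0.000129). The peripheral axon controls had 21.1, 39.3 and 0 CPM, so 2 of 3 controls were within or above the Cre range and control 4 had none. Kif11 (Eg5, which pushes spindle poles apart) had 20.9, 14.5, 24.6 and 44.2 CPM in axon and 0.25, 2.31, 1.43 and 1.2 in soma (4.09 (SE 0.70, adjusted p = 0.00137)), with 13.9, 18.7 and 0 in the axon controls. Kif20b, needed for cytokinesis, had 58.4, 12.8, 48.1 and 21.5 CPM in axon and 1.69, 1.09, 1.58 and 1.72 in soma (4.31 (SE 0.57, adjusted p = 0.000262)), with 1.1, 22.2 and 0 in the axon controls. Again the highest control lay inside the Cre range. Kif23 (a subunit of centralspindlin at the midbody) had 22.9, 19.7, 9.27 and 24.1 CPM in axon and 3.81, 1.8, 1.22 and 0.629 in soma (3.16 (SE 0.64, adjusted p = 0.00361)), with 2.64, 28.4 and 62.3 in the axon controls. Kif14, Kif2c, Kif18a, Kif4 and Kif22 were higher by 4.00, 3.73, 3.47, 2.68 and 1.65 on the log2 scale, also with no overlap between axon and soma libraries.

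Kif20a, which delivers Aurora B to the central spindle, was the tested mitotic kinesin that was not called. It had 49.9, 30.6, 30 and 42.6 CPM in peripheral axon and 24.3, 21.1, 19.2 and 19.3 in soma, so the groups did not overlap, but the soma level per length was the highest of the mitotic kinesins and the change was 0.65 (SE 0.29, adjusted p = 0.106). For Kif20a, 29.3% of exon length lies opposite Cdc23. The 3 mitotic kinesins not tested here for too few counts, Kif18b, Kifc1 and Kifc5b, had 0.243 to 34.9, 0.488 to 5.72 and 0 to 2.52 CPM in the peripheral axon Cre libraries. In the soma controls of batch 2, Kif23 and Kif15 lay above the Cre somas in every library: Kif23 had 9.02, 5.18, 8.05 and 41 CPM and Kif15 2.21, 3.7, 49.7 and 4.43.

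Markers of other cells moved with the mitotic kinesins. All 10 of 10 proliferation genes (Mki67 and Top2a among them) were higher in peripheral axon than soma. They summed to 581 to 987 CPM in the peripheral axon Cre libraries, 679 to 1019.9 in their controls and 42.7 to 69.7 in the Cre somas. Schwann cell markers (10 of 10 higher) summed to 10444 to 28521, 8653 to 16048 and 439 to 645 CPM in the same groups, and fibroblast markers (6 of 6 higher) to 3816 to 6686, 5224 to 19577 and 173 to 364. Endothelial (5 of 5 higher) and skeletal muscle markers (3 of 3 tested higher) rose too, and none of these lists had a gene at 0 in all peripheral axon Cre libraries. General neuron markers were lower in 7 of 10 and nociceptor markers in 7 of 9. The neuron markers summed to 2411 to 8707 CPM in peripheral axon and 14588 to 15536 in soma Cre libraries. The part of these cells in the motor genes' changes was not tested.

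**Figure D3:**
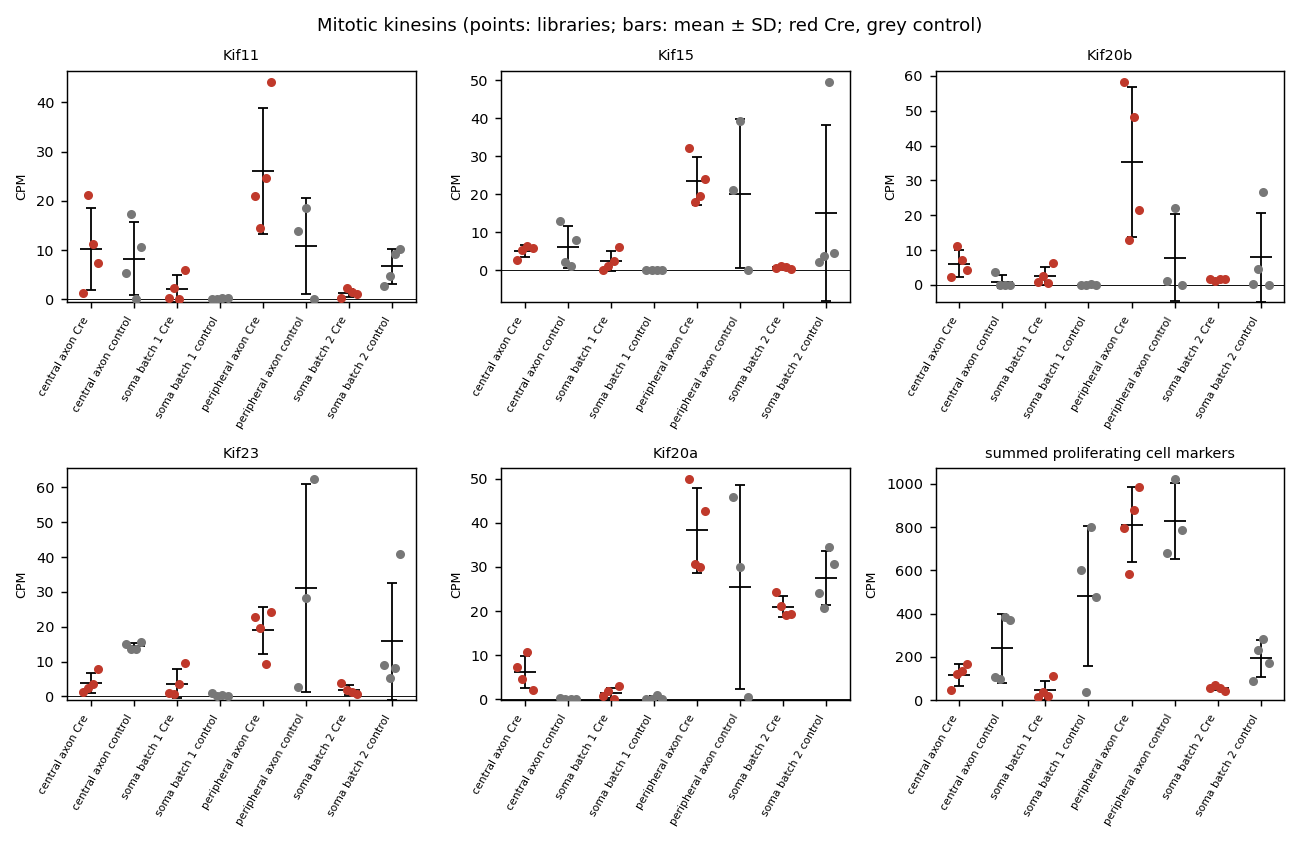
CPM (vertical axis) of 5 mitotic kinesins and the summed CPM of 10 proliferation markers in the 8 groups. Points are libraries (red Cre, grey control) and bars are the mean ± SD. The 4 peripheral axon Cre libraries are above the Cre somas of their own batch for every gene shown. Control 4 of the peripheral axon is at 0 for Kif11, Kif15 and Kif20b. The summed markers lie between 581 and 1019.9 CPM in all 7 peripheral axon libraries.

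The promoters of most mitotic kinesins held a short element, and their sequences are shown here for it. RefSeq promoter windows of 300 bases (250 before to 50 after the start site, mouse build GRCm38.p6) matched 45 of the 60 members by symbol. The letters TTTGAA, the core of the cell cycle genes homology region (CHR), through which such genes are known to be kept silent outside division, occurred on either strand in 11 of the 12 mitotic kinesins that had a window. They occurred in 17.9% of all 32851 windows and, counted by gene symbol as the members were, in 20.2% of 27025 symbols. Among members they occurred in 1 of 14 transport kinesins and light chains (Kif1a), in 1 of 8 dynein-1 and dynactin genes (Dctn1) and in 15 of the 45 members in all. Of the mitotic kinesins called higher in peripheral axon, 8 of 9 had it, with Kif18a lacking these letters in its window. In 9 of the 11 genes a copy began within 30 bases of the start site, a count that was not made over all windows. Kif26b, which is not a mitotic kinesin, also had a copy there, at -9. The following windows run from 70 bases before to 30 after the start site, 5′ to 3′ on the strand of the gene, with TTTGAA or its reverse complement TTCAAA in capitals. Kif11 is from chr19:37376312-37376411 on the plus strand, Kif15 from chr9:122951011-122951110 on the plus strand, Kif20b from chr19:34922288-34922387 on the plus strand, Kif23 from chr9:61946770-61946869 on the minus strand, Kif22 from chr7:127042391-127042490 on the minus strand and Kif4 from chrX:100625995-100626094 on the plus strand.
Kif11: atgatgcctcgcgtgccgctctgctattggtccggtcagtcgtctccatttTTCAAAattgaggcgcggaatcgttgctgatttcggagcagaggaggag
Kif15: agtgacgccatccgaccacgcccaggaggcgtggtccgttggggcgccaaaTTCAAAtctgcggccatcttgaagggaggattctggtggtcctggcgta
Kif20b: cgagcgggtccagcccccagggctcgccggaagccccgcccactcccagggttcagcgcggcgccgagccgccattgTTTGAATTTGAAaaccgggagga
Kif23: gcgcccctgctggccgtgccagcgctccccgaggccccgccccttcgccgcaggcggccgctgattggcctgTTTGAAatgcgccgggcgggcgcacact
Kif22: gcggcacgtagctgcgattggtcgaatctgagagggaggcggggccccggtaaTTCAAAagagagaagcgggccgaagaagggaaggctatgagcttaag
Kif4: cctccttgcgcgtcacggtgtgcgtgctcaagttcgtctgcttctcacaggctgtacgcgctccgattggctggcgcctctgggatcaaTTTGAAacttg

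Of the 11 members called lower in peripheral axon that had a window, 2 held TTTGAA (18.2%, Dctn1 and Kif26b), close to the shares of all windows and of all symbols. Klc1, Kif3c and Dctn2 are shown from the other 9, without these letters. Klc1 is from chr12:111758798-111758897 on the plus strand, Kif3c from chr12:3365062-3365161 on the plus strand and Dctn2 from chr10:127266192-127266291 on the plus strand.
Klc1: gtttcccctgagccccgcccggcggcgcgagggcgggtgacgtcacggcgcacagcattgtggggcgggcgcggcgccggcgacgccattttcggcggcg
Kif3c: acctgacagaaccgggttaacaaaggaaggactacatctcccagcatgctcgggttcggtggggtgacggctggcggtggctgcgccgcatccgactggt
Dctn2: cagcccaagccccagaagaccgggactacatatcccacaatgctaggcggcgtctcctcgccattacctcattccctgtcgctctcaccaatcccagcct

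Counted from the RefSeq start site, TTCAAA began at -19 in both Kif11 and Kif15 and at -17 in Kif22. For Kif11, Kif23 and Dctn2 the transcribed end of the window was not found in a GENCODE M21 transcript, so their positions rest on RefSeq alone. TTTGAA began at 3 in Kif23, at 20 in Kif4 and at 8 and 14 in Kif20b, where 2 copies stand end to end. Of 12 motifs searched on either strand, CCAAT, which often lies upstream of a CHR, was in 8 of 12 mitotic kinesins and 37.4% of all windows, and GGGCGG was in 6 of 12 and 35.7%. TGACG, which the longer TGACGTCA contains, was in 7 of 12 and 20.8%. The variants TTCGAA and TTTAAA were in 0 and 2 of 12, against 1.56% and 13.2% of all windows. TATAAA was in 1 of 12 (13.6% of all), CACGTG in 0 (7.15%), TGACGTCA in 1 (1.79%), TTTCGCGC in 0 (0.323%), TTTGGCGC in 2 (0.514%) and the palindrome of NRF1 in 0 (0.971%). The shares of all in this paragraph count windows, whereas members were counted by symbol. By symbol the shares were 41.1% for CCAAT, 38.2% for GGGCGG and 23% for TGACG. Matches are descriptions of these letters and not of binding.

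Central axons were compared with the somas of batch 1 in the same way. Of 52 members tested, 4 were higher and 4 lower, against 13.7% of all 14480 genes called (8.63% higher and 5.11% lower), so the members' share was close to that of all genes. The genes called were of several roles, and none of the 10 mitotic kinesins tested was called. Their median log2 fold change was 0.89 against 0.05 for all genes. None of the 10 was under an unadjusted p of 0.05 by edgeR.

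Kif21b, a kinesin-4 motor of neurons and immune cells (chr1:136131389-136177998), had the largest change. It had 55.5, 155, 56.8 and 111 CPM in central axon and 4.14, 9.35, 2.24 and 11.1 in soma Cre libraries. All axon libraries lay far above all soma libraries, and the log2 fold change was 3.40 (SE 0.51, adjusted p = 0.00139). Its paralog Kif21a went the other way, with 275, 218, 295 and 247 CPM in axon and 338, 340.2, 524 and 1221 in soma (-1.63 (SE 0.41, adjusted p = 0.0209)). Kifc2 (chr15:76659858-76668196) had 183, 285, 210.3 and 278 CPM in axon and 71.6, 72.3, 45 and 63.9 in soma (1.47 (SE 0.28, adjusted p = 0.00553)), and Kifc3, a minus-end-directed kinesin of epithelial junctions, had 19.3, 45.7, 57.1 and 40.7 and 6.11, 7.89, 1.55 and 0.794 (2.85 (SE 0.65, adjusted p = 0.0137)). For Kifc3, 27.5% of exon length lies under opposite-strand genes. None of these 4 genes' groups overlapped.

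The central axon controls held Kif21b and Kifc2 at levels as high as the Cre libraries or higher. Kif21b had 176, 151, 275 and 189.9 CPM in the central axon controls and 0.123, 200.1, 0.647 and 0 in the soma controls. Kifc2 had 288, 493, 242 and 310.3 CPM in the central axon controls and 0.245, 110.1, 2.05 and 11.5 in the soma controls. Kifc3 had 57.1, 0, 25.3 and 35.6 CPM in the central axon controls and at most 0.117 in the soma controls. Markers of spinal neurons rose with Kif21b, Kifc2 and Kifc3: 5 of 5 tested were higher in central axon than soma. The 6 markers summed to 86.9 to 292 CPM in the central axon Cre libraries, 134 to 588 in their controls and 1.27 to 6.99 in the Cre somas. Astrocyte markers were higher in 5 of 6, with sums of 296 to 1347, 1329 to 2347 and 1.98 to 32 CPM, and oligodendrocyte markers in 4 of 5 tested, with sums of 97.5 to 1041, 336 to 3733 and 4.92 to 38.2. No gene of these lists was at 0 in all central axon Cre libraries. Their part in the motor genes' changes was not tested.

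Dync1i2 led the genes lower in central axon, with 360.1, 264, 265 and 269 CPM in axon and 512, 433, 775 and 1887 in soma (-2.04 (SE 0.45, adjusted p = 0.012)). The dynactin genes Dctn4 and Dctn6 were lower by -1.26 and -1.16, the latter overlapped over 11.8% of its exon length by an opposite-strand gene. Dync2h1 was higher, with 26.2, 80.1, 34.9 and 32.9 CPM in axon and 7.46, 18.7, 2.67 and 10.1 in soma (1.75 (SE 0.54, adjusted p = 0.047)). In the controls Dync2h1 had 91.7, 56.4, 8.77 and 26.3 CPM in central axon and no count in soma. Leaving out 1 library ended the call of Dync2h1 in 7 of 8 fits, of Dctn6 in 6, of Dctn4 in 4 and of Kif21a in 3, whereas Kif21b, Kifc2, Kifc3 and Dync1i2 were called in 8 of 8. The 8 called members became 4 without axon library 2 or 3 and 5 without axon library 4 or soma library 3. No member was called when all 4 groups of the batch shared 1 fit, in which 0.0977% of all genes were called.

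Most of the classic transport motors did not pass the test between central axon and soma. Dctn1 had 391, 395, 423 and 348 CPM in axon and 390.4, 328, 264 and 156 in soma (0.00 (SE 0.33, adjusted p = 0.997)). Kif5a had 484, 759, 391 and 443 and 335, 533, 526 and 618 CPM (-0.38 (SE 0.33, adjusted p = 0.474)), and Kif5c 469, 406, 287 and 420.3 and 333, 269, 241 and 385 (-0.06 (SE 0.30, adjusted p = 0.921)). Kif5b, at 199, 226, 269 and 184 and 203, 186, 201 and 291 CPM, gave -0.44 (SE 0.28, adjusted p = 0.328). The signs of all 4 changed in at least 1 other scaling or set of libraries. Klc1 had 1812, 1131, 1722 and 977 CPM in axon and 2119, 2101, 2161 and 2471 in soma and missed the threshold without overlap between groups (-1.06 (SE 0.37, adjusted p = 0.0709)). Dync1i1 missed it too, with 143, 133, 209 and 126 and 178, 168, 201 and 236 CPM, which overlapped before TMM scaling and not after it (-0.79 (SE 0.29, adjusted p = 0.086)). DESeq2 called Klc1 and Dync1i1, both lower in axon.

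Kif1a had 619, 1127, 354 and 915 CPM in central axon and 411, 359.8, 221 and 405 in soma (0.67 (SE 0.37, adjusted p = 0.254)), and Kif1b 439.8, 569.7, 177 and 418 and 406, 348, 328 and 739.5 (-0.60 (SE 0.39, adjusted p = 0.335)). Dync1h1 was the most variable of the large motors, with 269, 1263, 123 and 361 CPM in axon and 212, 423, 197 and 717 in soma (-0.03 (SE 0.60, adjusted p = 0.982)). Kif3a gave 0.17 (SE 0.28, adjusted p = 0.731). Kif17 had 8.87, 5.02, 11.8 and 17 CPM in axon against 2.38, 3.41, 3.45 and 4.76 in soma, where the CPM did not overlap but the scaled values did, and was not called (1.15 (SE 0.63, adjusted p = 0.248)). Of the mitotic kinesins, Kif11 had 1.32, 21.2, 11.3 and 7.47 CPM in axon and 0.311, 2.34, 0 and 5.95 in soma (1.89 (SE 1.18, adjusted p = 0.312)). Kif20a had 7.36, 4.57, 10.7 and 2.01 and 0.829, 1.85, 0.0863 and 2.91 CPM (1.78 (SE 1.00, adjusted p = 0.259)), and Kif23 1.42, 2.42, 3.62 and 7.75 and 0.932, 0.779, 3.54 and 9.53 (-0.42 (SE 0.95, adjusted p = 0.811)).

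**Figure D4:**
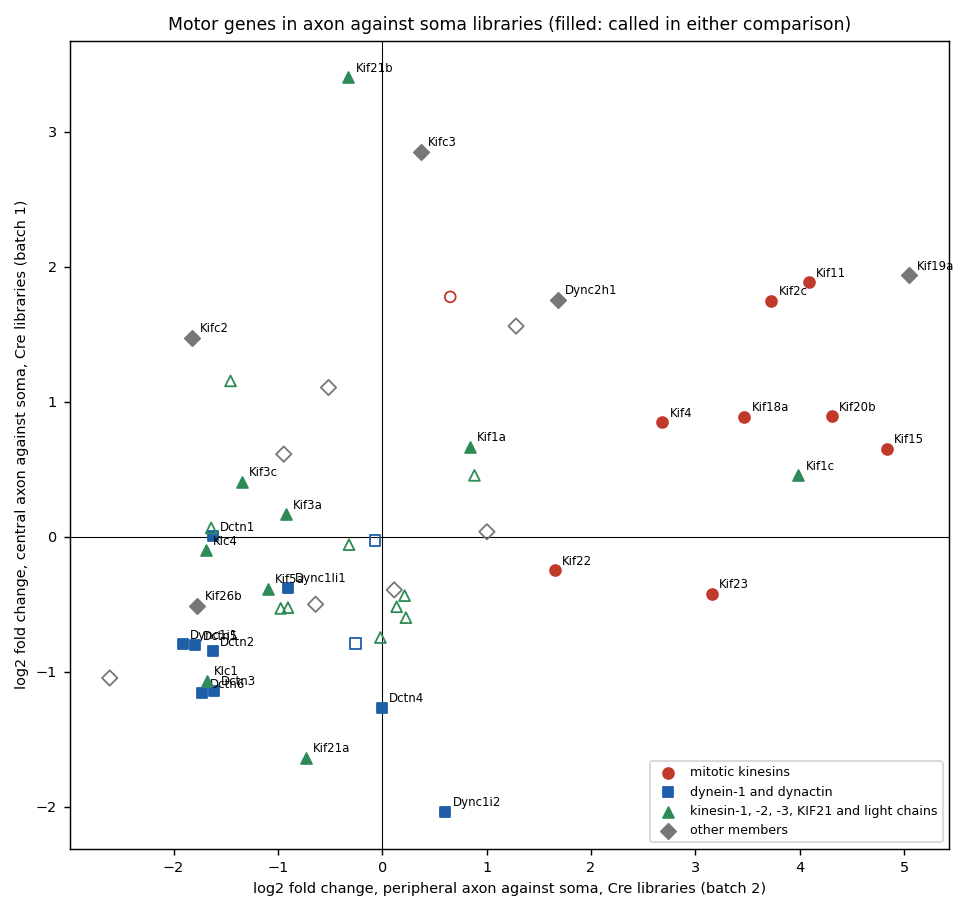
Log2 fold change of central axon against soma (vertical axis, batch 1) and of peripheral axon against soma (horizontal axis, batch 2) for the 51 genes tested in both comparisons of Cre libraries. Filled symbols were called in at least 1 of them. Mitotic kinesins (circles) lie to the right. Squares are dynein-1 and dynactin genes, the dynactin genes lying mostly lower left, and Kif21b is at the top.

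The 2 axons were then compared by the difference of their changes relative to soma, fitted in 1 model. Of 57 members tested, 9 were called, 5 with a higher and 4 with a lower change in central axon, against 13.1% of all 16725 genes (7.2% higher and 5.88% lower). The share of members was again close to that of all genes. The difference was 3.46 (SE 0.56, adjusted p = 0.000874) for Kifc2 and 3.88 (SE 0.77, adjusted p = 0.00339) for Kif21b, the largest positive ones called. Dctn1 followed at 1.79 (SE 0.46, adjusted p = 0.0155), Kif3c at 1.89 (SE 0.61, adjusted p = 0.0469) and Kif1bp at 1.71 (SE 0.49, adjusted p = 0.0262). Kif1bp, which blocks motor domains of several kinesins, had 91.5, 87.8, 173 and 155 CPM in central axon and 60.1, 68.1, 38.9 and 77.3 in its somas, and 66.9, 66.1, 20.5 and 41.8 in peripheral axon and 103, 53.4, 76.4 and 90.6 in its somas.

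Lower in central relative to peripheral axon were Kif15 at -3.99 (SE 1.11, adjusted p = 0.0227), Kif1c at -3.34 (SE 0.91, adjusted p = 0.0212), Kif20b at -3.27 (SE 1.02, adjusted p = 0.0385) and Dync1i2 at -2.46 (SE 0.65, adjusted p = 0.0174). Kif15 had 2.74, 5.38, 6.33 and 5.84 CPM in central axon and 0.104, 0.974, 2.33 and 6.22 in its somas, Kif20b 2.17, 11, 7.14 and 4.12 and 0.829, 2.53, 0.518 and 6.22, and Kif1c 8.11, 13.6, 2.8 and 8.33 and 1.24, 3.21, 4.14 and 9.53, all overlapping. The values of the 2 somas also enter: Kif3c had 54, 48.6, 16.7 and 13.8 CPM in the batch 1 and 234, 266, 175 and 183 in the batch 2 Cre somas, with no overlap, and 53.6, 35.1, 110.2 and 39.8 in central axon. Kif3c lost its call in 12 of 16 fits without 1 library, Kif20b in 11, Kif1bp in 7, Kif15 in 3 and Kif1c in 2. The number called was 15 without peripheral axon library 2, 4 without batch 2 soma 8, and 5 without batch 2 soma 5 or batch 1 soma 4. Schwann cell markers differed the same way as the lower genes, with 8 of 10 lower in central relative to peripheral axon, and proliferation markers with 5 of 10, whereas 4 of 6 astrocyte markers were higher.

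**Figure D5:**
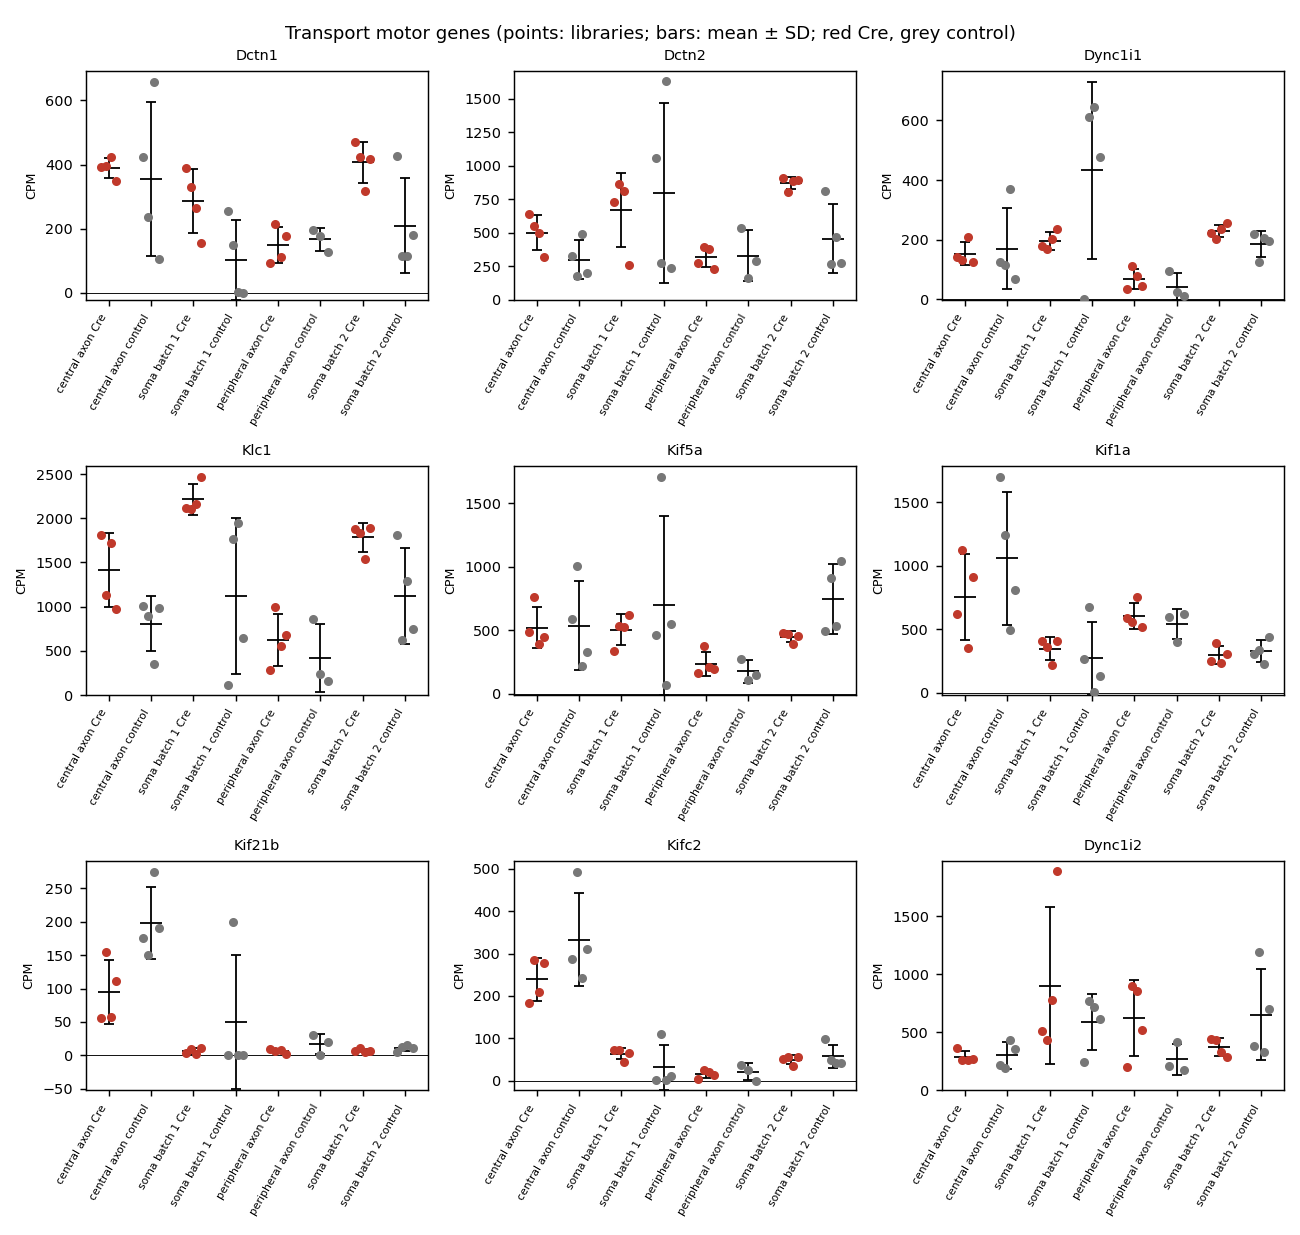
CPM (vertical axis) of 9 transport motor genes in the 8 groups. Points are libraries (red Cre, grey control) and bars are the mean ± SD, which can reach below 0 where replicates differ widely. Dctn1, Dctn2, Klc1 and Kif5a are low in peripheral axon against soma, and Kif21b and Kifc2 are high in central axon libraries of both genotypes.

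Cre libraries were compared with Cre-negative controls of the same tissue to ask which motor RNAs the pulldown of tagged ribosomes enriched. In central axon, none of 52 members was called by edgeR (0.0141% of all 14189 genes), 7 were under an unadjusted p of 0.05, and DESeq2 called 3. Dctn3 had the smallest p: it had 300.4 to 635 CPM in Cre and 123 to 213 in control libraries, a log2 fold change of 1.61 (SE 0.37, unadjusted p = 0.00113, adjusted p = 0.227). Klc3, a light chain at low level, had 1.26 to 14.8 CPM in Cre libraries and no count in the controls. Its Cre mean was at least 22.8-fold higher against a floor of 3 counts per library (0.25 as edgeR's adjusted p). Cre libraries 2 and 4 held only 14 and 24 counts, and 28.1% of Klc3's exon length lies opposite Ercc2. Kif21a had 275, 218, 295 and 247 CPM in Cre and 97.8, 66.9, 143 and 140.3 in control libraries (1.25 (SE 0.37, unadjusted p = 0.00633, adjusted p = 0.42)). Kif20a had 7.36, 4.57, 10.7 and 2.01 and 0.242, 0, 0 and 0.102 CPM, with an edgeR adjusted p of 0.42. Kif23 had 14.9, 13.7, 13.6 and 15.7 CPM in the controls, all above the Cre libraries (-1.93 (SE 1.23, unadjusted p = 0.144, adjusted p = 1)). After TMM scaling the groups did not overlap for 7 of 52 members (13.5%), beside 8.14% of all genes.

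In peripheral axon, none of 51 members was called by edgeR (0% of all 13970 genes), none was under an unadjusted p of 0.05, and DESeq2 called none. Dync1i2, with 212, 415 and 172 CPM in the controls, gave 1.30 (SE 0.62, unadjusted p = 0.0627, adjusted p = 1), and Dync1li2 gave 0.82 (SE 0.40, unadjusted p = 0.0676, adjusted p = 1). Kif5a had 275, 104 and 146 CPM and Klc1 862, 243 and 163 in the controls, with changes of 0.55 (SE 0.46, adjusted p = 1) and 0.68 (SE 0.64, adjusted p = 1). Kif1a had 595, 404 and 621 CPM in the controls (0.28 (SE 0.37, adjusted p = 1)).

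In the batch 1 somas 2 of 38 members tested were called, both higher in Cre libraries, against 4.42% of all 11667 genes. Kif17 had 2.38, 3.41, 3.45 and 4.76 CPM in Cre libraries and no count in the 4 controls, at least 1.3-fold higher against a floor of 3 counts per library (edgeR adjusted p = 0.0099). Without control 3, whose small scaling factor raises that floor, the bound for Kif17 was 8.40-fold. Dync2h1 had 7.46, 18.7, 2.67 and 10.1 CPM and again none in the controls, at least 3.54-fold higher (edgeR adjusted p = 0.0276), and at least 22.9-fold without control 3. Leaving out 1 library ended the call of Kif17 in 3 and of Dync2h1 in 6 of 8 fits. Members with 10 counts numbered 41 to 50 in these Cre libraries and 23 to 28 in the controls. Without control 3 of this group 9 members were called, without Cre library 1 there was 1, and leaving out control 1, a or b singly left none (controls a and b are 2 count columns that share a name, so their numbers are not known).

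In the batch 2 somas none of 52 members was called by edgeR (0% of all 15280 genes), 10 were under an unadjusted p of 0.05, DESeq2 called 6, and 9 were called by edgeR without control 5. Control 5 held 18080478 counts, against 3601399 to 4515978 in the other controls. Its Dctn1, Dctn2 and Klc1, at 426, 814 and 1808 CPM, lay inside the Cre range, and the other controls lay below it. Its Kif17 and Dync1h1 lay above the Cre range. Dctn3 had 572 to 900.4 CPM in Cre and 169 to 469.5 in control libraries (1.58 (SE 0.39, unadjusted p = 0.00149, adjusted p = 0.0799)). Dync1h1 was lower in Cre libraries, with 292, 297, 201 and 278 CPM against 316, 824, 1422 and 1254 (-1.56 (SE 0.39, unadjusted p = 0.00201, adjusted p = 0.0879)), and its groups overlapped only after TMM scaling. Klc1 had 1808, 627, 1286 and 746 CPM in the controls (0.94 (SE 0.37, adjusted p = 0.234)). Kif17 was seen in 1 of the 4 controls, control 5, at 8.19 CPM, and in all 4 Cre libraries at 2.65 to 3.56 CPM (0.67 (SE 1.46, adjusted p = 0.854)).

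The Cre-to-control change of the axon was last set against the same change of its soma. For central axon none of 55 members was called by edgeR (0% of all 15355 genes), 9 were under an unadjusted p of 0.05, and DESeq2 called 3, as did edgeR without control 3 of the batch 1 somas. The 2 smallest p-values belonged to Dync2h1 (edgeR adjusted p = 0.102) and Kifc5b (edgeR adjusted p = 0.102), both with groups at 0. For peripheral axon none of 54 was called by edgeR (0.00636% of all 15717 genes), 5 were under an unadjusted p of 0.05, and DESeq2 called 1. Dync1h1 gave 1.59 (SE 0.64, adjusted p = 0.426) and Kif18b, with under 1 CPM in every batch 2 Cre soma, an edgeR adjusted p of 0.355.

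Partners of the motors outside the 60 genes were counted from lists of known adaptors. In peripheral axon against soma, dynein regulators and adaptors were higher in 3 and lower in 5 of 19 tested, beside 18.7% of all genes higher and 12.5% lower. Nde1 and Spdl1, which bring dynein to kinetochores of dividing cells, were higher by 2.61 and 3.72, and the actin-related dynactin filament gene Actr1b was lower by -1.53, the same direction as the dynactin members. Kinesin adaptors were higher in 2 and lower in 7 of 21. Fez1, a kinesin-1 adaptor, was lower by -2.06, and the mitochondrial adaptors Trak1 and Trak2 went in opposite directions, at -0.96 and 1.90. Microtubule-associated proteins were lower in 7 of 15 and higher in none, and dynein light chains were lower in 1 of 7 tested.

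In central axon against soma, where 8.63% of all genes were higher and 5.11% lower, kinesin adaptors were higher in 1 and lower in none of 21, with Hap1, the huntingtin-associated adaptor, at 5.04 (SE 0.45, adjusted p = 4.88e-05). Dynein regulators were higher in 2, Hook1 among them at 3.19 (SE 0.42, adjusted p = 0.00065), and lower in 1 of 18 tested. Dynein light chains were lower in 3 of 9, with Dynll2 at -1.82 (SE 0.37, adjusted p = 0.00858). Microtubule-associated proteins were higher in 2 and lower in 1 of 15, the dendritic Map2 being higher at 2.56 (SE 0.51, adjusted p = 0.00702). The central axon controls were not used in these counts, and markers of spinal neurons were higher in the same libraries, as given above.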

How the data were processed

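Per the file headers, what the authors deposited for each batch is a table of unnormalized counts of reads by gene. Per the submitters' processing notes, STAR 2.7.2b and mm10 were used, and the counting program and its handling of strand, shared reads and duplicates are not given in the sources used here. Per the labels' protocols, RNA from the pulldown was made into libraries with a SMART-Seq kit for very small inputs, so duplicated molecules can inflate counts. For batch 1, 2 soma control columns share a name and are called a and b.

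Symbols, coordinates and exon lengths came from GENCODE M21 (GRCm38). Counts were fitted over all genes with edgeR 4.0.16 in R 4.3.3 (filterByExpr with a minimum count of 10 and total of 15, TMM, glmQLFit, glmQLFTest) using only the groups compared, and a gene was called where its p, adjusted by Benjamini and Hochberg over all genes tested, was under 0.05. The SE was taken as the size of the log2 fold change over the root of edgeR's F statistic. The fits were checked on simulated counts. Promoters came from RefSeq (GRCm38.p6), and the motifs, members, lists and tests were chosen with earlier results of these data known. Named in every comparison were 15 members, with up to 8 called members per direction, or the 2 with the smallest p where none was called. Alternatives were RLE size factors, library size alone, no filter on low counts, DESeq2 1.42.0, all 4 groups of a batch in 1 fit, a replicate block and leaving out each library.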

Additional observations from a re-analysis of the deposited data

Results flagged for a closer look

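Among 27 genes whose values are given by library, 18 of 185 groups of 4 libraries held 1 library far from the other 3, its gap to the nearest exceeding 0.829 of the group's range. Chance alone would pick out about 1 in 20 such groups if the values were normally distributed. That was not tested for these CPM, and in some flagged groups the other 3 libraries had no count. The chance rate here is therefore not known, and 18 of 185 cannot be read as an excess over it. Groups of 3 were not examined.

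Controls of the batch 1 somas gave 7 of these. In control a, Kif21b had 200.1 CPM against at most 0.647 in the others, Kifc2 had 110.1 CPM against at most 11.5, and Kifc3 had 0.117 CPM against 0, which is 1 count and under the 3 counts taken as detectable. In control 3, Kif5c had 1443 CPM against at most 309, Kif20a had 0.971 CPM and Kif20b had 0.216 CPM, both against 0, and the latter is 2 counts, also under that amount. In control b, Kif1c had 4.63 CPM against at most 0.117. The batch 1 Cre soma 4 was high for Klc1, at 2471 CPM against at most 2161, and for Kif5b, at 291 CPM against at most 203.

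Controls of the batch 2 somas stood out for cell division genes: in control 7, Kif15 had 49.7 CPM against at most 4.43 and Kif20b 26.7 against at most 4.44, and in control 8, Kif23 had 41.0 CPM against at most 9.02. Control 5 had 8.19 CPM of Kif17, with 0 in the other 3, and 97.7 CPM of Kifc2 against at most 49.6.

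In central axon, Cre library 1 had 360.1 CPM of Dync1i2 against at most 269 and Cre library 2 had 80.1 CPM of Dync2h1 against at most 34.9. Control 1 had 3.72 CPM of Kif20b, with 0 in the others, and control 2 had 25.1 CPM of Kif3c against at least 89.9.

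Central and peripheral axons, each relative to its soma, differed for 9 members by edgeR's test of that difference. The log2 differences were 3.88 for Kif21b, 3.46 for Kifc2, 1.89 for Kif3c, 1.79 for Dctn1 and 1.71 for Kif1bp. They were -3.99 for Kif15, -3.34 for Kif1c, -3.27 for Kif20b and -2.46 for Dync1i2.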

How the results depend on the processing

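With all 4 groups of the batch in 1 fit the number of members called was 0 for central axon against soma (8 as reported), 11 for peripheral axon against soma (27), with 1 mitotic kinesin (9), and 6 for batch 1 soma Cre against control (2). DESeq2 gave 14 for central axon against soma, 15 for central minus peripheral axon (9), 4 for the batch 1 and 6 for the batch 2 somas against controls, 3 for central axon against controls, and 3 and 1 for the central and peripheral differences of differences. Library size alone gave 6 for the batch 1 and 1 for the batch 2 somas, and no filter gave 1 for the latter. Leaving out 1 library gave 4 to 10 for central axon against soma, 22 to 32 for peripheral axon against soma, 4 to 15 for central minus peripheral axon, 0 to 9 for the batch 1 somas (9 without control 3), 0 to 9 for the batch 2 somas (9 without control 5) and 0 to 3 for the central difference of differences (3 without control 3 of batch 1). It gave 9 to 10 mitotic kinesins higher and 6 to 7 dynein-1 and dynactin genes lower in peripheral axon (9 and 7 as reported), and DESeq2 called 11 mitotic kinesins. The counts for these roles, and the bounds for Kif17 and Dync2h1 without control 3, were added after seeing the data. The cause of these moves was not tested.

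With the replicate number as a block the batch 1 somas gave 0 members, on the 2 numbered pairs only, and central axon against soma gave 9, the 8 as reported and Klc1. The labels do not say whether equal numbers mark the same animals. Correlations of same-numbered libraries were not above 0.1 in every pair of any comparison. For central axon against soma they were 0.196, -0.00494, 0.0876 and 0.184, and those of different-numbered libraries ran from -0.24 to 0.184. These correlations cannot decide whether the samples were paired, and the fits reported used no block. Peripheral axon and soma share none, and no paired analysis was possible there.

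For central axon against soma the all-gene median was 0.05 as reported and 0.50 with library size alone. Changes of sign were seen only among values not called. For central axon against soma, library size alone gave 0.052 for Kif5a, 0.00142 for Kif5b, 0.37 for Kif5c, 0.39 for Dync1h1 and 0.051 for Kif23. All 4 groups in 1 fit gave 0.26 for Kif5c and 0.28 for Dync1h1, RLE factors 0.013 and DESeq2 0.024 for Dync1h1, and the block 0.016 for Kif23. Leaving out 1 library spanned -0.32 to 0.073 for Kif5c, -1.02 to 0.39 for Dync1h1, -0.23 to 0.21 for Dctn1 and -1.01 to 0.51 for Kif23. For peripheral axon against soma, library size alone gave 0.10 for Dync1h1, and leaving out 1 library spanned -0.32 to 0.036 for Dync1h1, -0.092 to 0.37 for Kif5b and -0.066 to 0.33 for Kif1b.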
